A study of Rattus norvegicus with 26 samples.

Results

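The 39 genes described here encode lysosomal hydrolases and their activators (14 genes), lysosomal membrane proteins (4), subunits of the proton pump that acidifies lysosomes, the V-ATPase (3), the regulators TFEB, TFE3, TSC2 and mTOR (4), and the autophagy machinery (14). They were taken by gene name from a table of 17910 genes, the transcript rows of a gene were summed, and a mean of at least 5 normalized counts over all rats was required. All 39 genes passed this filter, as did 15595 genes of the whole table. RNA came from the dentate gyrus (DG), the hippocampal subregion of the granule cells, of 26 male F344 rats that entered treatment at 6 months of age, with 1 library for each rat. The 8 rats of the Dox group received the anthracycline doxorubicin by intraperitoneal injection at 2 mg/kg in 4 weekly doses. The 8 rats of the Dox + ABT group received the same injections and, in alternate weeks, the senolytic ABT-263 (navitoclax), which blocks pro-survival proteins of the Bcl-2 family, given orally by gavage at 12 mg/kg on 5 consecutive days. The 10 Veh rats were gavaged with vehicle and also belonged to an ongoing study of brain aging. ABT-263 without doxorubicin was not analysed here. The comparisons ask whether systemic doxorubicin changed the transcripts of the lysosome and of autophagy in the DG, and whether rats that also received the senolytic differed.

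Lysosomes are acidic organelles in which hydrolases degrade proteins, lipids, glycans and nucleic acids. In macroautophagy a double membrane, built by the ATG proteins and marked by lipidated LC3 and GABARAP proteins, encloses cytoplasm and delivers it to the lysosome. The kinase mTOR, in complex 1 on the lysosomal surface, restrains autophagy and keeps the transcription factors TFEB and TFE3 in the cytoplasm, and in the nucleus these factors drive many lysosomal genes. In the brain, neurons depend on autophagy for the turnover of long-lived proteins and organelles, while microglia, the phagocytes of the tissue, hold a large share of several cathepsins.

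TFEB and TFE3 bind a motif called CLEAR that is built around an E-box core (CACGTG), and the bases before the start site are shown for 4 lysosomal members to let the motif be read beside their values. They come from the RefSeq promoter table for the rat build GRCr8, are written 5′ to 3′ on the strand of the gene, and hold the 250 bases before the start, with CACGTG in capitals. Mcoln1 lies on the plus strand at chr12:6358008-6358257, Ctsd on the minus strand at chr1:206968822-206969071, Lamp1 on the minus strand at chr16:83075064-83075313 and Ctsz on the minus strand at chr3:183653848-183654097.
Mcoln1: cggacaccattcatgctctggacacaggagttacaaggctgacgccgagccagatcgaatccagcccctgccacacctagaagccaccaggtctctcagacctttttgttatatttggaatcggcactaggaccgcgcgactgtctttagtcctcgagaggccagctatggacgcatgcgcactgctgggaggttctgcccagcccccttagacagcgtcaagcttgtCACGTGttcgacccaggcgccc
Ctsd: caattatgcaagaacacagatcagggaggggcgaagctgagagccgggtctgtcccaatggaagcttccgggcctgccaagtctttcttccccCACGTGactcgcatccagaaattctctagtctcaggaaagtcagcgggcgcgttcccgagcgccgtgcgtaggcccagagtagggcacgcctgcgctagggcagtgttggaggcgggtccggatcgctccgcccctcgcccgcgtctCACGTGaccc
Lamp1: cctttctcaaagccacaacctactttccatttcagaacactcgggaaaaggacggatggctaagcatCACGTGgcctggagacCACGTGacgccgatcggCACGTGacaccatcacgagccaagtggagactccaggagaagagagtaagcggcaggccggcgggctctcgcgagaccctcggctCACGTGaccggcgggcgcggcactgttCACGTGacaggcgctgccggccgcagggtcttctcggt
Ctsz: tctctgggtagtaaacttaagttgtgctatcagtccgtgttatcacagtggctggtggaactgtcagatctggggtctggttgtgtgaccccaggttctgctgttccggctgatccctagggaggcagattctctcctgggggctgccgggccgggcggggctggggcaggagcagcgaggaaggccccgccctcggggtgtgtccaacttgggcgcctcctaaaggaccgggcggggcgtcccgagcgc
The core was found once before the start of Mcoln1, in 2 copies for Ctsd and in 5 copies for Lamp1, and it was not found in the 250 bases of Ctsz. The 3 motifs searched, the full-length CLEAR palindrome, TCACGTGA within it and CACGTG within both, read the same on both strands. In windows of 300 bases (250 before and 50 after the start), 32 of the 39 members were matched by symbol: 0 held the full-length motif, 4 held TCACGTGA (Atp6v0d1, Ctsd, Lamp1 and Mcoln1, 12.5% of those matched) and 6 held CACGTG (the same 4 with Atg5 and Gaa, 18.8%). The TCACGTGA of Mcoln1 lay after the start, outside the bases shown. Of all 33469 promoters in the table, 0.233% held the full-length motif, 0.777% held TCACGTGA and 6.42% held CACGTG. A match in these letters is a description and says nothing of binding in these rats.

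The depth was estimated from the steps between low values at 10126000 to 24292000 reads for each library, the Veh, Dox and Dox + ABT medians being 16662000, 15619000 and 15099000. Once the group means were removed, the libraries were ordered along the leading axis of a principal component analysis (28.4% of the variance left). A cut at the widest gap between their scores split them into 2 kinds, as such a cut does in any data. The scores ran from -37.9 to -0.82 in the first kind and from 21.0 to 38.3 in the second. The first kind held 16 libraries (4 Veh, 5 Dox and 7 Dox + ABT) and the second 10 (6 Veh, 3 Dox and 1 Dox + ABT, replicate 4). Ribosomal protein genes held 0.647% to 1.27% of the normalized counts in libraries of the first kind and 1.35% to 2.17% in those of the second, with no overlap, and what lies behind this difference was not tested. The labels name no batch that matches this split, and the axis was computed from these data, the 39 genes included. Because the kinds are spread unevenly over the groups, each value of the 39 genes with p under 0.05 is also given with library kind as a covariate, and most others are given without it. Markers of granule cells, Prox1 and C1ql2 among them, were detected in every group. The granule cell marker C1ql2 was lower in Dox + ABT than in Veh (log2 fold change -0.46, limma p = 0.000697, and -0.33, p = 0.00812, with the covariate), and its part in the results for Dox + ABT was not tested. Of the 8 granule cell markers tested, 1 passed p under 0.01 in that comparison, where 7.84% of all tested genes did. There 3 of the 8 lay below 0 and 5 above, with a median of 0.03, or -0.20 with the covariate.

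The level of the 18 genes for hydrolases, activators and membrane proteins was computed for each rat as the mean difference from the Veh mean on the log2 scale. It ran from -0.29 to 0.18 in Veh with a median of 0.02, from -0.30 to 0.03 in Dox with a median of -0.17, and from -0.25 to 0.12 in Dox + ABT with a median of -0.16. In each treated group 7 of 8 rats lay below the Veh mean, as did 5 of 10 Veh rats, and the ranges overlapped. The level of the 14 autophagy genes ran from -0.19 to 0.15 in Veh (median -0.0019), from -0.19 to 0.04 in Dox (median -0.07) and from -0.20 to -0.01 in Dox + ABT (median -0.14). Here 5 of 8 Dox rats and 8 of 8 Dox + ABT rats were below the Veh mean, as were 5 of 10 Veh rats.

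The difference between the lysosomal and the autophagy level within a rat ran from -0.11 to 0.16 in Veh (median -0.02), from -0.17 to -0.0080 in Dox (median -0.09) and from -0.11 to 0.14 in Dox + ABT (median -0.03). It was below 0 in 8 of 8 Dox rats, in 6 of 10 Veh rats and in 6 of 8 Dox + ABT rats, and the groups overlapped. The 2 kinds of library had different medians of both levels among the Veh rats, although their ranges overlapped. The lowest Dox rat in both levels, replicate 5, had a library of the second kind. Among the Veh rats the lysosomal level had a median of -0.13 in the 4 libraries of the first kind and 0.06 in the 6 of the second, and the autophagy level -0.09 and 0.08. Within the first kind, the lysosomal level was below 0 in 3 of 4 Veh, 5 of 5 Dox and 7 of 7 Dox + ABT rats, with medians of -0.13, -0.17 and -0.17. The autophagy level there was below 0 in 4 of 4, 4 of 5 and 7 of 7 rats, with medians of -0.09, -0.09 and -0.16. The group medians of both levels thus lay closer together within the first kind than over all rats. The one Dox + ABT library of the second kind, replicate 4, had the highest lysosomal level of its group, 0.12.

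**Figure D1:**
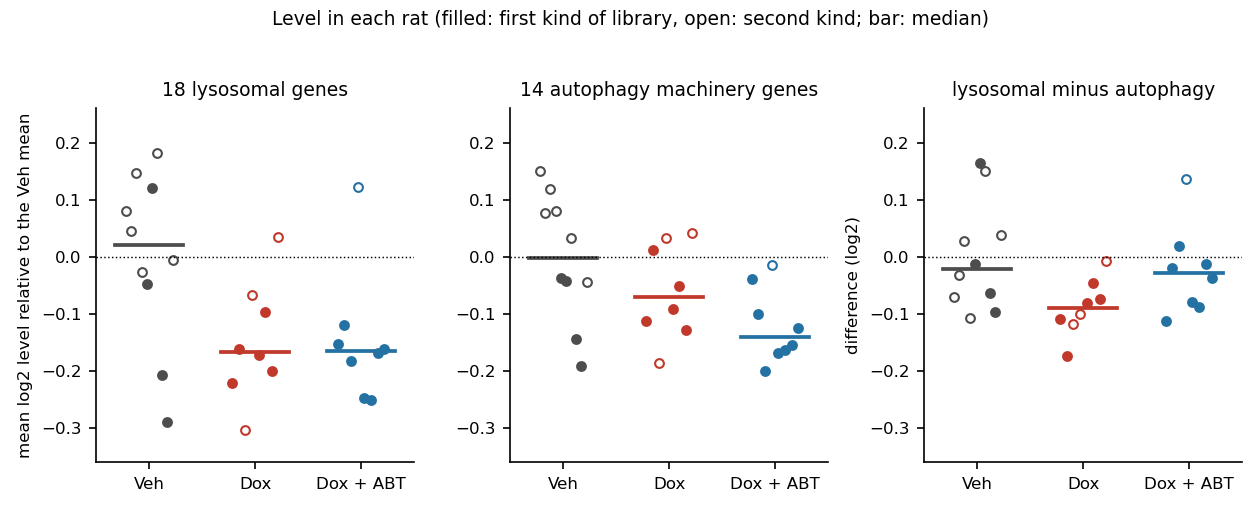
Mean log2 level of the 18 lysosomal genes, the 14 autophagy machinery genes and their difference in each rat, relative to the Veh mean (dotted line), for Veh (10 rats), Dox (8) and Dox + ABT (8), with filled points for the first and open points for the second kind of library and bars for medians. All 8 Dox rats lie below 0 in the difference, and the open Dox + ABT point stands above the rest of its group in the lysosomal level (0.12).

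Between Dox and Veh, 3 of the 39 genes passed the test and all 3 were hydrolases that were lower in Dox: Ctsz, Ctsh and Hexa. The share was 7.69%, against 2.87% of all tested genes in either direction and 1.85% in the direction lower in Dox. A gene is said to have risen or fallen where limma gave p under 0.01, the threshold of the study, and none of the 39 had an adjusted p under 0.05. The median log2 fold change was -0.12 over the 14 hydrolases and activators, -0.06 over the membrane proteins, -0.07 over the V-ATPase subunits, -0.09 over the regulators and -0.07 over the autophagy machinery, against 0.0050 over all tested genes. These role medians were, with library kind as a covariate, -0.08, -0.05, 0.03, -0.06 and -0.03, so that the V-ATPase subunits changed sign. Of the 39 genes, 29 lay below 0 and 10 above. Without 1 of Veh replicates 1, 2, 3, 9 or 12 or Dox replicates 1, 9 or 10 the count was 1, and Ctsz was the gene left (1.71% to 2.87% of all tested genes).

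Between Dox + ABT and Veh, 4 of the 39 genes passed, all lower in Dox + ABT: Atg7 and Wipi2 of the autophagy machinery, the hydrolase Ctsa and the membrane channel Mcoln1. This share of 10.3% compares with 7.84% of all tested genes in either direction and 3.95% in the direction lower in Dox + ABT. The median log2 fold change was -0.13 over the hydrolases, -0.09 over the membrane proteins, -0.18 over the V-ATPase subunits, -0.21 over the regulators and -0.07 over the autophagy machinery, against -0.00086 over all tested genes. With the covariate these were -0.09, -0.12, -0.03, -0.11 and -0.07, and with quantile normalization -0.10, -0.04, -0.05, -0.15 and -0.04. Of the 39 genes, 32 lay below 0 and 7 above. With library kind as a covariate 0 of the 39 passed (1.37% of all tested genes), the smallest p being 0.0169 for Atg7. Single libraries moved this count too. It was 2 without Veh replicates 1, 2 or 9 or Dox + ABT replicates 3, 5 or 6 (4.46% to 5.05% of all tested genes), while it was 9 without Veh replicate 11 (13.7% of all tested genes) and 8 without Dox + ABT replicate 4 (11.7%). The comparisons share the Veh rats, and no overlap between them is drawn.

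**Figure D2:**
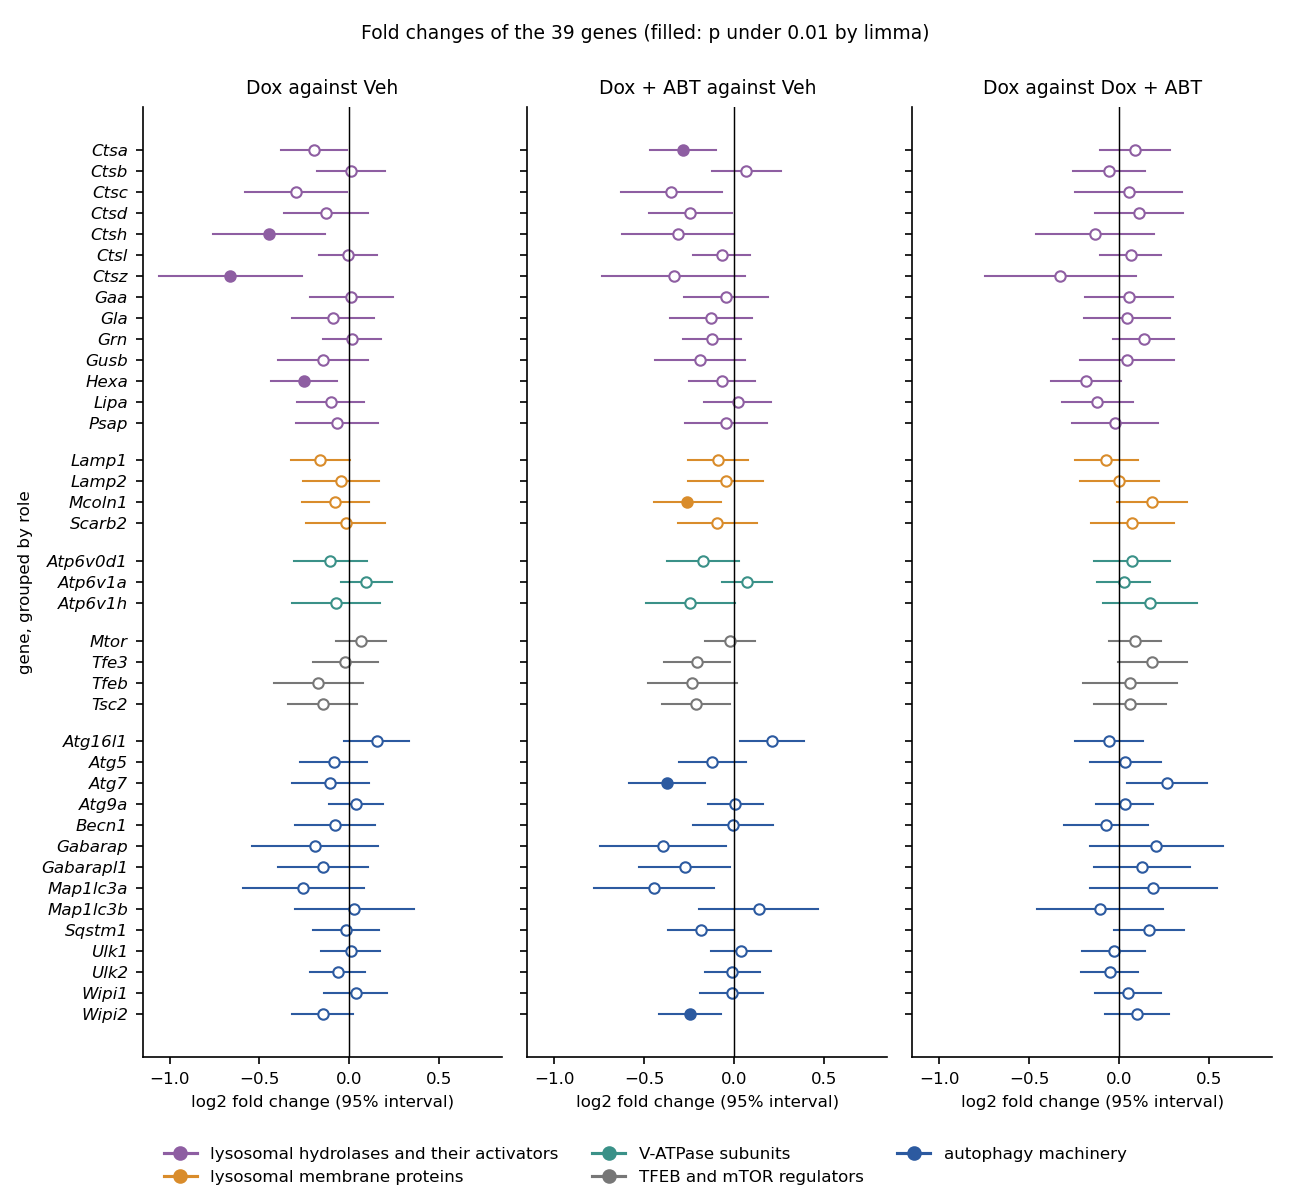
Log2 fold change of each of the 39 genes with its 95% interval in the 3 comparisons, coloured by role, with filled points where limma gave p under 0.01. Filled points are Ctsz, Ctsh and Hexa for Dox against Veh and Ctsa, Mcoln1, Atg7 and Wipi2 for Dox + ABT against Veh, all left of 0, and there are 0 for Dox against Dox + ABT.

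The cathepsins are the best known of the lysosomal proteases. Ctsz encodes cathepsin Z, a carboxypeptidase. Its normalized counts were 143 at the lowest, 248 at the median and 295 at the highest in Veh, 80.6, 155 and 247 in Dox, and 150, 168 and 300 in Dox + ABT (lowest, median and highest in each case, also below). All 8 Dox rats were below the Veh median and 4 of them below every Veh rat. Ctsz fell by 0.66 on the log2 scale in Dox against Veh (SE 0.19, 95% interval -1.06 to -0.26, limma p = 0.002, adjusted p = 0.212), or by 36.8%. The fold changes here and below are on the scale of log2(value + 1). With library kind as a covariate the log2 fold change was -0.55 (p = 0.00303), within the first kind -0.71 (p = 0.00607), and within the second, with 3 Dox and 6 Veh rats, -0.40 (p = 0.0907). In Dox + ABT the log2 fold change against Veh was -0.34 (p = 0.0953), and it was much smaller with the covariate. Without the covariate no rat that was left out ended the call in Dox.

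Ctsh, for the aminopeptidase cathepsin H, had 387, 664 and 798 normalized counts in Veh, 345, 460 and 619 in Dox and 417, 464 and 812 in Dox + ABT. Every Dox rat was below the Veh median, 3 were below every Veh rat, and 7 of 10 Veh rats were above every Dox rat. Ctsh fell by 0.45 on the log2 scale in Dox (SE 0.15, 95% interval -0.76 to -0.13, limma p = 0.00661, adjusted p = 0.307). The value was -0.32 with the covariate (p = 0.00375), and the call was lost when any 1 of 9 rats was left out. In Dox + ABT it was -0.31 (p = 0.0494) without and -0.04 (p = 0.691) with the covariate, the highest value of that group being that of replicate 4.

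Hexa encodes the alpha subunit of beta-hexosaminidase A, which degrades the ganglioside GM2. It had 565, 795 and 902 normalized counts in Veh, 500, 629 and 780 in Dox and 655, 722 and 760 in Dox + ABT. Dox rats were all below the Veh median and 2 were below every Veh rat, while 7 of 8 were below the Dox + ABT median. Hexa fell by 0.25 on the log2 scale in Dox against Veh (SE 0.09, 95% interval -0.44 to -0.07, limma p = 0.00919, adjusted p = 0.338). That call was near the threshold: the p was 0.015 with the covariate, 0.0235 with Dox and Veh alone in the fit, and above 0.01 when any of 20 rats was left out. Against Dox + ABT the log2 fold change in Dox was -0.19 (p = 0.061), and -0.24 (p = 0.00627) with the covariate.

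Ctsa encodes cathepsin A, a carboxypeptidase that also protects beta-galactosidase and neuraminidase in the lysosome. Its values were 1775, 2495 and 2892 in Veh, 1809, 2087 and 2211 in Dox, and 1673, 1894 and 2275 in Dox + ABT. All treated rats were below the Veh median, and 7 of 10 Veh rats were above every rat of either treated group. Ctsa fell by 0.29 on the log2 scale in Dox + ABT against Veh (SE 0.09, 95% interval -0.47 to -0.10, limma p = 0.00338, adjusted p = 0.11), and no single rat ended the call. With the covariate the value was -0.17 (p = 0.0394) and within the first kind, 7 Dox + ABT and 4 Veh rats, -0.09 (p = 0.342). In Dox it was -0.20 (p = 0.0352), -0.14 with the covariate (p = 0.0649) and -0.35 within the second kind (p = 0.00491). Within the first kind, with 5 Dox and 4 Veh rats, Ctsa was slightly higher in Dox than in Veh and did not pass.

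Among the other cathepsins the values did not pass in any comparison. Ctsc, cathepsin C, which activates serine proteases, had medians of 57.0 in Veh, 46.4 in Dox and 45.5 with Dox + ABT, with log2 fold changes against Veh of -0.30 (p = 0.0404) and -0.35 (p = 0.0168). Ctsd, the main lysosomal aspartic protease, had medians of 4993, 4620 and 4236 in the same order, with -0.13 (p = 0.257) and -0.24 (p = 0.0409). With the covariate the values of Ctsc were -0.24 (p = 0.0799) and -0.24 (p = 0.108), and that of Ctsd in Dox + ABT was -0.10 (p = 0.338). Both had their lowest median in Dox + ABT, with ranges that overlapped those of Veh. Ctsb and Ctsl, the major cysteine endopeptidases, had values near 0. Ctsb had medians of 6474, 6835 and 6614 with log2 fold changes of 0.01 and 0.07, and Ctsl 1404, 1306 and 1283 with -0.01 and -0.07.

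The remaining glycosidases and lipid-handling genes of the list did not pass. Gaa, the acid alpha-glucosidase of glycogen breakdown, had medians of 4226 in Veh, 4699 in Dox and 4156 with Dox + ABT. Within the first kind of library Gaa was higher in Dox than in Veh and within the second lower, without passing in either. Gla, alpha-galactosidase A, had 177, 158 and 153, and Gusb, beta-glucuronidase, 92.3, 76.8 and 75.1. Lipa, the acid lipase of cholesteryl esters, had 544, 503 and 556, with 4 Dox rats below every Veh rat and the other 4 above the Veh median. Their log2 fold changes against Veh ran from -0.15 (Gusb) to 0.01 (Gaa) in Dox and from -0.19 (Gusb) to 0.02 (Lipa) in Dox + ABT, and the smallest of the p-values was 0.13. Psap, the precursor of the saposins that present lipids to hydrolases, had medians of 21762, 22837 and 20643, and Grn, progranulin, 1224, 1188 and 1146, with log2 fold changes between -0.12 and 0.01.

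Summed markers of microglia had lower medians in both treated groups than in Veh. Of 15 listed markers, 13 were used and all of them were detected. Their summed level was 4605, 7310 and 8461 normalized counts in Veh, 4517, 6185 and 6753 in Dox and 4415, 5281 and 7358 in Dox + ABT, so the groups overlapped. In Dox 5 of the 13 were lower at p under 0.01 (Aif1, Cx3cr1, Itgam, P2ry13 and Tmem119) and in Dox + ABT 3 (Csf1r, P2ry13 and Trem2), where 2.87% and 7.84% of all tested genes passed. With library kind as a covariate 3 (Aif1, Cx3cr1 and P2ry13) and 0 passed, and the median log2 fold change of the 13 was -0.26 in Dox and -0.11 in Dox + ABT in place of -0.37 and -0.28. The complement genes C1qa, C1qb and C1qc had log2 fold changes of 0.18, 0.12 and 0.27 in Dox. Summed levels of astrocyte markers were 49226, 59924 and 73657 in Veh, 45615, 48093 and 52850 in Dox and 45063, 51462 and 67229 in Dox + ABT. Of the 9 astrocyte markers 3 were lower in Dox and 1 in Dox + ABT, and 3 and 0 with the covariate. In Dox 5 of the 9 lay below 0 and 4 above, with a median of -0.08. Of the 9 oligodendrocyte markers 8 lay below 0 in Dox and 1 above, with a median of -0.26, and 2 passed. With the covariate that median was -0.18 and 1 passed, where 2.7% of all tested genes did. In Dox + ABT 5 of these 9 lay below 0 and 4 above. All 5 blood markers tested were above 0 in Dox (median 1.03) and below 0 in Dox + ABT. None of them passed, but 5 did in Dox with the covariate. In bulk tissue, fewer cells of a type and less RNA in each cell cannot be told apart, and the part of these cells in the values of Ctsz, Ctsh and Hexa was not tested.

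**Figure D3:**
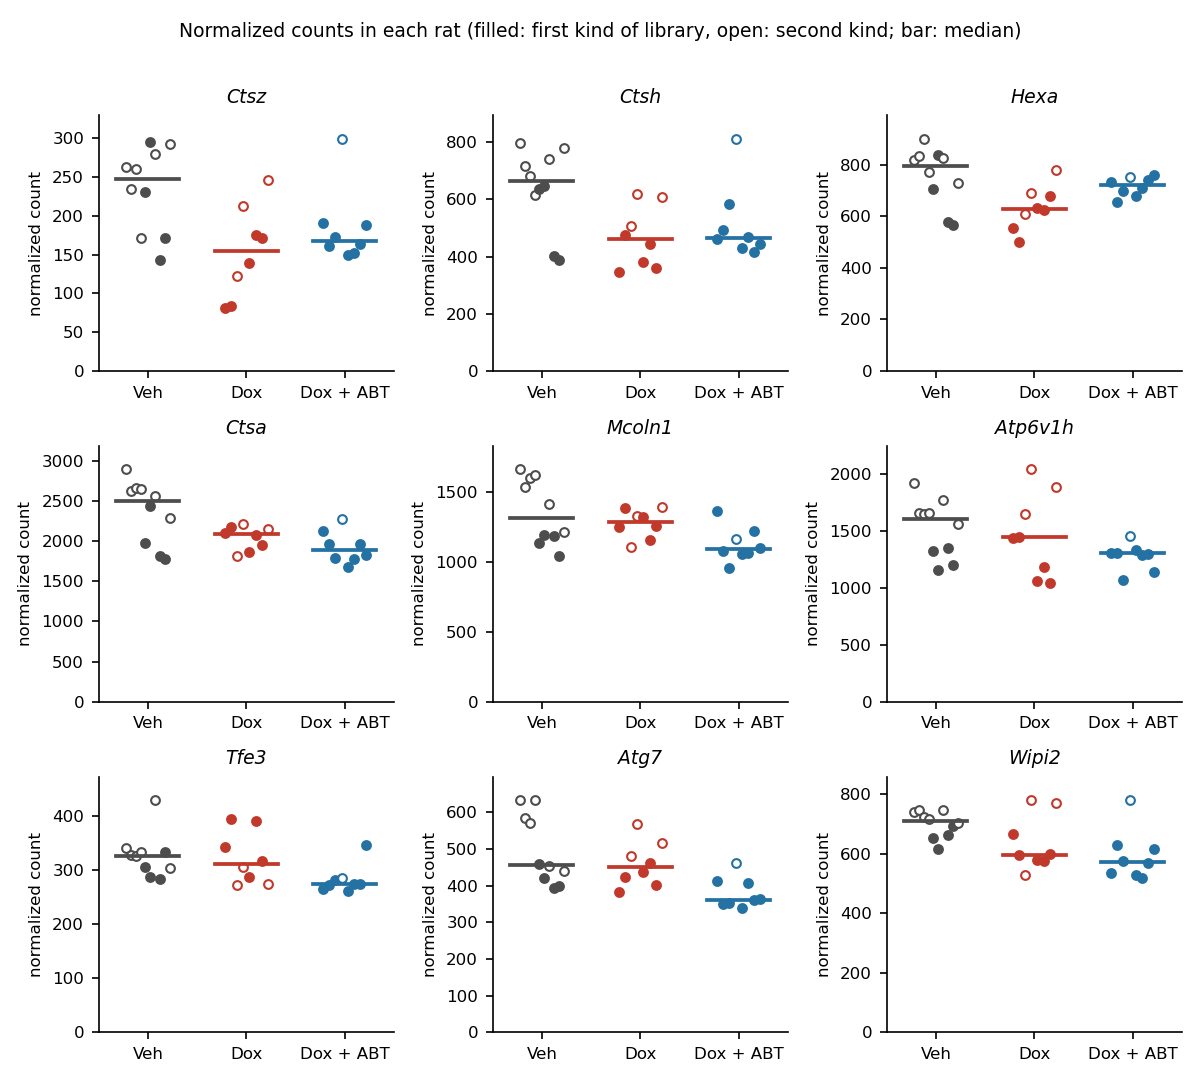
Normalized counts (vertical axis, from 0) of 9 genes in each rat of Veh, Dox and Dox + ABT, with filled points for the first and open points for the second kind of library and bars for medians. For Ctsz 4 of 8 Dox rats lie below every Veh rat, and for Atg7 5 of 8 Dox + ABT rats do.

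Of the 4 lysosomal membrane proteins 1, Mcoln1, passed for Dox + ABT against Veh, where 7.84% of all tested genes did. Mcoln1 encodes TRPML1, the channel that releases calcium from the lysosome. It had 1039, 1312 and 1660 normalized counts in Veh, 1106, 1287 and 1391 in Dox and 954, 1090 and 1359 in Dox + ABT. In Dox + ABT 7 of 8 rats were below the Veh median and 1 was below every Veh rat, whereas the Dox rats lay on both sides of it. Mcoln1 fell by 0.26 on the log2 scale in Dox + ABT against Veh (SE 0.09, 95% interval -0.45 to -0.08, limma p = 0.00757, adjusted p = 0.12). With the covariate the value was -0.17 (p = 0.0653), within the first kind it was -0.03 (p = 0.748), and the call was lost when any 1 of 10 rats was left out. For Dox against Dox + ABT its log2 fold change was 0.18 (p = 0.0664).

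Lamp1 and Lamp2 encode the abundant glycoproteins that line the lysosomal membrane, LAMP2 serving also as the receptor of chaperone-mediated autophagy. Lamp1, with 5 copies of the core in the bases shown above, had 5408, 6283 and 7831 normalized counts in Veh, 4785, 5740 and 6370 in Dox and 5302, 5970 and 7074 in Dox + ABT. The Dox value against Veh was -0.16 (95% interval -0.32 to 0.00, p = 0.0539). Lamp2 had medians of 660, 613 and 596, and Scarb2, the receptor LIMP-2 that carries glucocerebrosidase to the lysosome, 1744, 1629 and 1563. Neither passed, with log2 fold changes against Veh between -0.09 and -0.02. Within the first kind of library, however, Scarb2 was lower in Dox + ABT than in Veh by 0.34 on the log2 scale (limma p = 0.000348), where 1.1% of all tested genes passed.

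None of the V-ATPase subunits passed in any comparison. Atp6v1h, the regulatory H subunit of the cytosolic part of the pump, had 1157, 1607 and 1922 normalized counts in Veh, 1047, 1446 and 2044 in Dox and 1071, 1304 and 1462 in Dox + ABT. All 8 Dox + ABT rats were below the Veh median and 6 of 10 Veh rats were above every Dox + ABT rat. The log2 fold change for Dox + ABT against Veh was -0.24 (SE 0.12, 95% interval -0.49 to 0.00, limma p = 0.0522, adjusted p = 0.227). With the covariate it was -0.03 (p = 0.755), the second kind of library being higher than the first by 0.46. Atp6v0d1, of the membrane part, had medians of 6254, 5564 and 5499, and Atp6v1a, the catalytic A subunit, 7490, 8471 and 7969, with log2 fold changes of -0.18 (p = 0.0853) and 0.07 (p = 0.312) in Dox + ABT.

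The regulators did not pass either, and 4 of 4 were on the lower side in Dox + ABT. Tfe3 had 283, 326 and 429 normalized counts in Veh, 271, 311 and 393 in Dox and 261, 274 and 346 in Dox + ABT. In Dox + ABT 6 of 8 rats were below every Veh rat, although replicate 12 reached 346. The log2 fold change was -0.21 for Dox + ABT against Veh (SE 0.09, 95% interval -0.39 to -0.02, limma p = 0.0277, adjusted p = 0.175) and -0.21 with the covariate (p = 0.0337), as Tfe3 differed by only -0.02 between the kinds. Without Dox + ABT replicate 12 the p was 0.00942. Within the first kind Tfe3 was -0.10 in Dox + ABT against Veh (p = 0.343).

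Tfeb had medians of 186 in Veh, 171 in Dox and 157 with Dox + ABT, with log2 fold changes of -0.17 (p = 0.163) and -0.23 (p = 0.0638). Tsc2, the GTPase-activating partner that restrains mTOR, had 3260, 2639 and 2658, with -0.15 (p = 0.118) and -0.21 (p = 0.0305), the latter being -0.08 with the covariate (p = 0.307). Both had lower medians in the treated groups, with overlapping ranges. Mtor itself had 2486, 2746 and 2421, with 0.06 (p = 0.355) and -0.03 (p = 0.712).

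In the autophagy machinery, 0 of 14 genes passed for Dox against Veh (2.87% of all tested genes) and 2 for Dox + ABT against Veh (7.84%), the latter being 0 with the covariate. The difference between these counts was not tested. Atg7 encodes the E1-like enzyme that activates ATG12 and the LC3 and GABARAP proteins. It had 393, 457 and 634 normalized counts in Veh, 384, 450 and 569 in Dox and 338, 362 and 463 in Dox + ABT. In Dox + ABT 7 of 8 rats were below the Veh median and 5 were below every Veh rat, while the Dox values spanned much of the Veh range. Atg7 fell by 0.37 on the log2 scale in Dox + ABT against Veh (SE 0.10, 95% interval -0.58 to -0.16, limma p = 0.00123, adjusted p = 0.109), or by 22.7%. With the covariate the value was -0.21 (p = 0.0169) and within the first kind -0.18 (p = 0.0518), and the call was kept whichever rat was left out. Against Dox + ABT, Dox was at 0.27 (p = 0.0211), at 0.18 with the covariate (p = 0.0334), and at p under 0.01 when Dox + ABT replicate 4 was left out.

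Wipi2 encodes the phosphoinositide-binding protein that recruits the ATG16L1 complex to the forming autophagosome. It had 615, 711 and 747 normalized counts in Veh, 527, 597 and 780 in Dox and 517, 573 and 779 in Dox + ABT. In both treated groups 5 of 8 rats were below every Veh rat, and yet the highest values of either group exceeded every Veh rat. Wipi2 fell by 0.25 on the log2 scale in Dox + ABT (SE 0.08, 95% interval -0.42 to -0.08, limma p = 0.00625, adjusted p = 0.116), and its value in Dox was -0.15 (p = 0.0874). With the covariate the value in Dox + ABT was -0.14 (p = 0.068), and the call was lost when any 1 of 8 rats was left out.

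The LC3 and GABARAP genes, whose products are joined to the autophagosomal membrane, spread widely between rats. Map1lc3a had 1528, 2988 and 4044 normalized counts in Veh, 1918, 2119 and 3264 in Dox and 1605, 1953 and 2674 in Dox + ABT, and Gabarap 1276, 2603 and 3284, 1497, 1725 and 3406, and 1478, 1715 and 2565. All 8 Dox + ABT rats were below the Veh median for both. Their log2 fold changes for Dox + ABT against Veh were -0.45 (p = 0.0109) and -0.40 (p = 0.028), and -0.18 (p = 0.172) and -0.05 (p = 0.606) with the covariate. Gabarapl1 had medians of 8375, 6314 and 6110, with -0.28 (p = 0.0339) in Dox + ABT and -0.04 (p = 0.604) with the covariate.

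These 3 genes were among those most different between the kinds of library, the second kind being higher by 0.57 for Map1lc3a, 0.74 for Gabarap and 0.50 for Gabarapl1. Map1lc3b went the other way, by -0.38. It had medians of 1820 in Veh, 2118 in Dox and 1880 with Dox + ABT, with log2 fold changes of 0.03 (p = 0.865) and 0.14 (p = 0.408). Within the second kind alone it was lower in Dox than in Veh by 0.52 on the log2 scale (limma p = 0.00691), which rests on 3 Dox rats. Within the first kind it was on the higher side in Dox and did not pass, with 2056 to 3463 normalized counts against 1726 to 2173 in Veh. Sqstm1, for the cargo receptor p62 that LC3 binds, had medians of 7621, 7290 and 6633, with -0.02 (p = 0.837) and -0.19 (p = 0.0493), the latter being -0.09 with the covariate (p = 0.307).

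The remaining autophagy genes did not pass in any comparison. Ulk1 and Ulk2, the kinases that start the process, had medians of 1573, 1635 and 1614 and of 1012, 956 and 1036 in Veh, Dox and Dox + ABT. Becn1, of the lipid kinase complex, had 1490, 1248 and 1468. Atg9a, the scramblase whose vesicles seed the membrane, had 3381, 3470 and 3293. In these 4 genes the log2 fold changes against Veh lay between -0.08 and 0.04.

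Atg5, which is joined to ATG12, had medians of 356, 340 and 327, and Wipi1, a relative of Wipi2, 366, 368 and 368. Atg16l1, whose protein directs lipidation of LC3, had 541, 768 and 954 normalized counts in Veh, 805, 854 and 917 in Dox and 802, 875 and 997 in Dox + ABT. All 16 treated rats were above the Veh median, but 2 of 10 Veh rats were above every Dox rat. The log2 fold changes of Atg16l1 were 0.15 (95% interval -0.03 to 0.33, p = 0.0944) in Dox and 0.21 (95% interval 0.03 to 0.39, p = 0.0242) in Dox + ABT, the largest on the higher side in that comparison. With the covariate they were 0.10 (p = 0.19) and 0.09 (p = 0.235), the second kind of library being at -0.24 relative to the first.

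Set directly against each other, Dox and Dox + ABT differed at p under 0.01 in 0 of the 39 genes, where 4.03% of all tested genes passed. At p under 0.05 there was 1 gene, Atg7 (log2 fold change 0.27, limma p = 0.0211, adjusted p = 0.304), where 12.7% of all tested genes had such a p. Of the 39 genes 27 were above 0, that is higher in Dox, and 12 below, and the median was 0.05 against -0.0014 for all tested genes. This tally depended on the scaling and the fit: it was 20 above and 19 below, with a median of 0.0051, under quantile normalization, and 20 and 19, with 0.0065, with a replicate block. The median was 0.01 with library kind as a covariate. Without a covariate the intervals left room for differences in either direction, as for Ctsz (-0.75 to 0.09) and Gabarap (-0.16 to 0.58). With the covariate Ctsz and Ctsh lay further below 0 than without it and did not pass, while Atg7 stayed above 0. With the covariate 1 gene passed, Hexa (-0.24), where 4.76% of all tested genes did. Within the first kind of library 2 passed, Gaa (0.32, p = 0.00108) and Tfe3 (0.29, p = 0.00845), both higher in Dox, where 8.21% of all tested genes did. Without Dox + ABT replicate 4 the count was 1, Atg7 (4.5% of all tested genes). Quantile normalization brought the medians of the lysosomal and V-ATPase genes in this comparison to -0.0046 and -0.05 from 0.04 and 0.07.

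Several of these genes differed as much between the kinds of library as between the groups. The median difference, second minus first kind with the group means taken out, was 0.22 over the hydrolases and activators (12 of 14 higher in the second), 0.10 over the membrane proteins, 0.24 over the V-ATPase subunits, 0.10 over the regulators and 0.08 over the autophagy machinery (7 of 14 higher), against 0.01 over all tested genes. Ctsh (0.57) and Ctsz (0.49) were the hydrolases with the largest differences. With the covariate, 2 of the 39 genes passed for Dox against Veh, Ctsz and Ctsh (2.7% of all tested genes). The median of the 39 genes was then -0.05 for Dox and -0.08 for Dox + ABT against Veh, in place of -0.08 and -0.12.

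Within the kinds the picture for Dox against Veh was not uniform. In the first kind 1 gene passed, Ctsz (4.76% of all tested genes), and the median of the 39 genes was 0.03, with the lysosomal genes at -0.05 and the autophagy machinery at 0.03. In the second kind Ctsa and Map1lc3b passed (3.57% of all tested genes), and the medians were -0.18 for all 39 genes, -0.23 for the lysosomal genes and -0.12 for the autophagy machinery. For Dox + ABT against Veh within the first kind the medians were -0.08 and -0.01. The difference between the kinds in these effects was not tested.

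**Figure D4:**
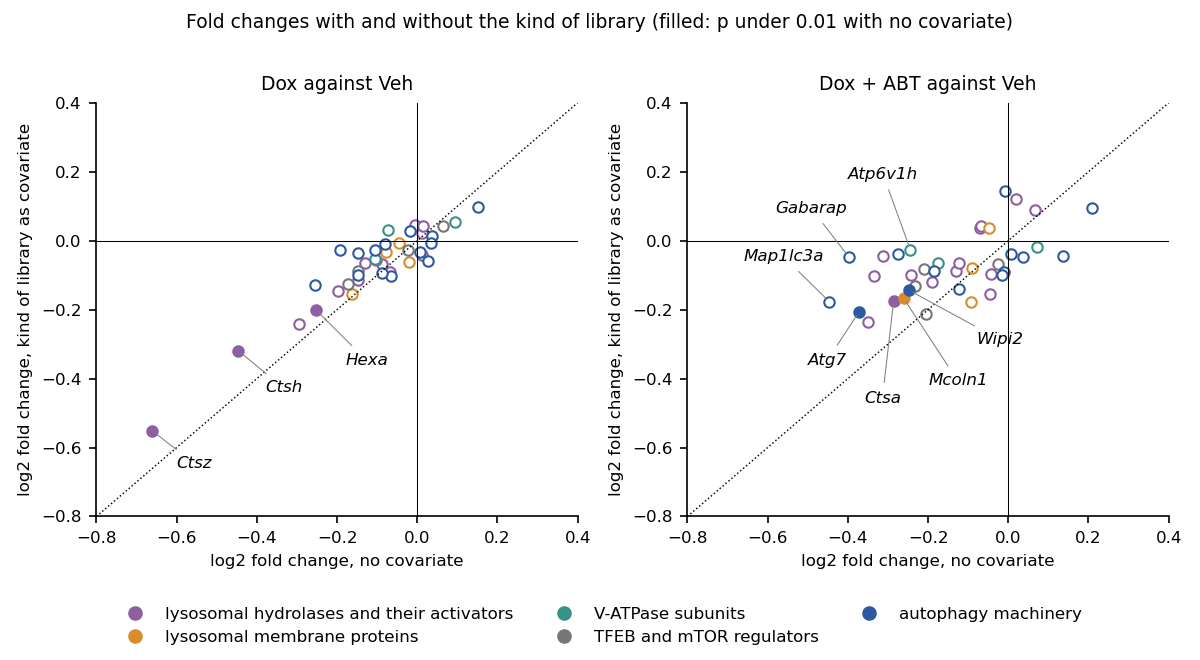
Log2 fold change of each of the 39 genes with no covariate (horizontal) and with library kind as a covariate (vertical), coloured by role, with filled points for p under 0.01 with no covariate and a dotted line where both are equal. For Dox against Veh, Ctsz moves from -0.66 to -0.55 and Ctsh from -0.45 to -0.32, while Gabarap and Atp6v1h move from -0.40 and -0.24 to -0.05 and -0.03 for Dox + ABT against Veh.

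A wider set of 168 tested genes of the lysosome, its enzyme sorting, the V-ATPase, autophagy and mTORC1 signalling was counted beside the 39. For Dox against Veh 3 of the 168 passed (1.79%, against 2.87% of all tested genes), all lower in Dox. Lgmn, the asparaginyl endopeptidase legumain, had 1039, 1211 and 1346 normalized counts in Veh, 876, 977 and 1172 in Dox and 1030, 1057 and 1229 in Dox + ABT (Dox against Veh -0.27, SE 0.07, limma p = 0.000313, adjusted p = 0.114). Laptm5, a lysosomal membrane protein of blood-derived cells and microglia, had 304, 625 and 783, then 259, 367 and 522, then 278, 369 and 590 (-0.58, SE 0.19, p = 0.00581, adjusted p = 0.306). For Lgmn the median of the Dox rats was below every Veh rat, and both Lgmn and Laptm5 passed with the covariate too. Laptm5 did not pass without Veh replicate 1, 2, 3, 9 or 12 or Dox replicate 1, 2 or 5, nor with Dox and Veh alone in the fit. The count was 6 without Veh replicate 10 (3.91% of all tested genes), 11 without Veh replicate 11 (4.53%) and 7 without Dox replicate 7 (4.24%) or 14 (4.17%).

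For Dox + ABT against Veh 14 of the 168 passed (8.33%, against 7.84% of all tested genes), 11 lower and 3 higher. Eif4ebp1, the translation repressor that mTORC1 phosphorylates, had 109, 157 and 187 normalized counts in Veh, 99.7, 113 and 197 in Dox and 66.1, 81.3 and 141 in Dox + ABT (-0.72, SE 0.15, limma p = 5.28e-05, adjusted p = 0.108). Vps18, of the tethering complexes that fuse vesicles with lysosomes, had 737, 1134 and 1288, then 774, 907 and 1159, then 584, 739 and 986 (-0.47, SE 0.12, p = 0.000603, adjusted p = 0.108). Plekhm1, an adaptor of the same fusion step, had 989, 1144 and 1215, then 1057, 1126 and 1230, then 904, 976 and 1077 (-0.19, SE 0.06, p = 0.0021, adjusted p = 0.109). For Eif4ebp1 and Plekhm1 the median of the Dox + ABT rats was below every Veh rat, and for all 3 the ranges overlapped.

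The others lower in Dox + ABT were Ap3d1, Pink1, Neu1, Atp6v1f, Ambra1, Atg101, Laptm5 and Dnase2, and those higher were Tpcn2, Wdr45b and Prkaa1. With the covariate 3 passed, Eif4ebp1 and Vps18 among them, with Ddit4 added (1.79%, against 1.37% of all tested genes). The count was 7 without Veh replicate 1, 3, 4, 9 or 12, 6 without Veh replicate 2 or Dox + ABT replicate 3, 8 without Dox + ABT replicate 5, 5 without Dox + ABT replicate 6, 9 without Dox + ABT replicate 12 and 24 without Veh replicate 11. The share of all tested genes moved alike, from 4.46% to 5.77% where 5 to 8 passed, 7.12% where 9 did and 13.7% where 24 did.

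For Dox against Dox + ABT 4 of the 168 passed (2.38%, against 4.03%), all higher in Dox. They were Ostm1, the partner of the lysosomal chloride exchanger (0.35, SE 0.10, limma p = 0.002, adjusted p = 0.177), Plekhm1 (0.20, SE 0.06, p = 0.0025, adjusted p = 0.183), Eif4ebp1 (0.50, SE 0.16, p = 0.00417, adjusted p = 0.193) and Ddit4, an inhibitor of mTORC1 induced by stress (0.52, SE 0.17, p = 0.00441, adjusted p = 0.197). Ostm1 had 732, 857 and 1128 normalized counts in Veh, 783, 911 and 1333 in Dox and 650, 735 and 838 in Dox + ABT. All 4 passed with the covariate as well, and the count was 2 without Dox + ABT replicate 5 (2.69% of all tested genes).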

How the data were processed

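RNA of the dentate gyrus of 26 rats was sequenced on an Ion Proton after poly(A) selection, with 1 library for each rat. The authors aligned the reads with STAR 2.5.3a to rn6 in Partek Flow, and the deposited signal values are their counts for each transcript row scaled by median ratio factors; the annotation is not given in the sources used here. Raw counts were not recovered, since only 74.8% to 80.8% of low values (under 8) came out whole within 0.02 reads in genes with 1 row. Every value column belonged to a labelled rat. The 24012 rows were summed by gene ID and genes with a mean of at least 5 were kept. The 3 groups were fitted together on log2(value + 1) with limma 3.58.1 (trended variance, R 4.3.3), without a covariate, and called at p under 0.01 as in the study, with Benjamini-Hochberg adjusted p beside. The count model of the study could not be used on scaled values. Rats were taken as biological replicates. The script was tested on simulated data. Alternatives were other pseudocounts and filters, rescaling by trimmed means of M values, quantile normalization, sample weights, pairs of groups fitted alone, a replicate block, library kind as a covariate and leaving out each rat. Fits within each kind of library were chosen after seeing the data. The members and gene lists were chosen with earlier results of these data known. Genes described in full were those past the threshold and the gene with the smallest p in each role. For the wider genes they were the 3 with the smallest p in each comparison, and Ddit4 was described with them; 1 of these genes is not reported here. Promoters and symbols came from RefSeq (GRCr8), whose coordinates are not those of rn6. Figures were drawn with matplotlib 3.10.9.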

Additional observations from a re-analysis of the deposited data

Results flagged for a closer look

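In 11 of 117 groups of rats (39 genes in 3 groups) the highest or lowest rat stood apart from the others by Dixon's criterion, which chance meets in about 1 in 20 groups. For 6 genes the rat was replicate 4 of Dox + ABT, the only one of its group with a library of the second kind. Its normalized counts were 9398 for Ctsb (next rat 7372), 299.7 for Ctsz (191), 812 for Ctsh (582), 916 for Lamp2 (668), 2565 for Gabarap (1788) and 779 for Wipi2 (630). All were the highest of the group. Without this rat Ctsc, Ctsh, Gabarapl1 and Map1lc3a also passed for Dox + ABT against Veh.

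The lowest Dox + ABT rat was replicate 3 for Grn, at 940 normalized counts (next rat 1055), and for Atp6v0d1, at 4691 (5255). Lamp1 was lowest in Dox replicate 5, at 4785 (5637). Tfe3 was highest in Veh replicate 9, at 429 (340), and in Dox + ABT replicate 12, at 346 (284).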

How the results depend on the processing

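Of the 39 genes 3, 4 and 0 passed for Dox against Veh, Dox + ABT against Veh and Dox against Dox + ABT, and of the 168 wider genes 3, 14 and 4. With sample weights the counts were 13, 18 and 1 of the 39 and 42, 69 and 13 of the 168, where 20.2%, 34% and 10.3% of all tested genes passed (3150, 5297 and 1612 genes). With library kind as a covariate they were 2, 0 and 1 of the 39, and 3 of the 168 for Dox + ABT against Veh (2.7%, 1.37% and 4.76% of all tested genes in the 3 comparisons). Within the first kind they were 1, 1 and 2 of the 39, and 2 and 10 of the 168 for Dox + ABT against Veh and Dox against Dox + ABT (4.76%, 1.1% and 8.21%), and within the second kind 6 of the 168 for Dox against Veh (3.57%). Quantile normalization gave 2 of the 39 for Dox + ABT against Veh (7.84% of all tested genes), and single transcript rows gave 1 for Dox against Dox + ABT (3.25% of all rows). With pairs of groups fitted alone 9 and 7 of the 168 passed for Dox + ABT against Veh and Dox against Dox + ABT (8.14% and 4.51%). The cause of these moves was not tested. Leaving out 1 rat gave 1 to 4, 2 to 9 and 0 to 1 of the 39, and 2 to 11, 5 to 24 and 2 to 6 of the 168 (1.71% to 4.53%, 4.46% to 13.7% and 2.69% to 5.05% of all tested genes). The log2 fold changes of Ctsz, Ctsh and Hexa in Dox and of Ctsa, Mcoln1, Atg7, Wipi2, Atp6v1h and Tfe3 in Dox + ABT against Veh kept their sign under every alternative run. Some came near 0, as for Mcoln1 within the first kind and Atp6v1h with the covariate. Dox + ABT was not compared within the second kind, which held 1 rat of that group.

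The replicate numbers did not pair the rats: deviations of 16 same-numbered pairs correlated at a median of -0.0125 (range -0.223 to 0.442, 6 above 0.1). With a replicate block 2, 5 and 0 of the 39 and 7, 14 and 3 of the 168 passed (4.91%, 7.57% and 2.58% of all tested genes), and the block left Ctsz and Ctsh for Dox against Veh. Estimated depth, 10126000 reads or more, speaks to counting error only; the spread between 8 to 10 rats and the uneven kinds of library limit these comparisons too.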

Other observations

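Of the 39 genes 15 had more than 1 transcript row, 40 rows in all, and 37 rows passed the filter on low values. These rows name transcripts as the authors' counting split them, and reads shared by transcripts make single rows uncertain. Of all 20203 rows tested, 2.36% passed for Dox against Veh, 6.39% for Dox + ABT against Veh and 3.25% for Dox against Dox + ABT, and 1 row of the 37 passed in each. A row of Tsc2 with 49.9% of the gene's counts had 1250, 1511 and 2080 normalized counts in Veh (lowest, median and highest), 901 to 1669 in Dox with a median of 1243, and 1272 to 1822 in Dox + ABT with a median of 1375. It fell by 0.38 on the log2 scale in Dox against Veh (SE 0.12, limma p = 0.00378, adjusted p = 0.358), while the other row of Tsc2, with 50.1% of the counts, was at 0.07 (p = 0.565). A row of Atp6v0d1 with 3.76% of the gene's counts had medians of 265 in Veh, 207 in Dox and 167 with Dox + ABT, and fell by 0.59 in Dox + ABT against Veh (SE 0.15, limma p = 0.000416, adjusted p = 0.136). The row with 95.1% of its counts was at -0.17 (p = 0.116) and another minor row at 0.63 (p = 0.0576). A row of Sqstm1 with 1.14% of the counts had medians of 53.6, 90.6 and 26.6 and was higher in Dox than in Dox + ABT by 1.74 (SE 0.58, limma p = 0.00578, adjusted p = 0.263), with values from 3.10 to 121 within Dox + ABT. The row with 98.9% of its counts was at 0.15 (p = 0.128).

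By list, the wider genes past p under 0.01 for Dox + ABT against Veh were 6 of 49 autophagy genes, 2 of 34 lysosomal enzymes, 2 of 23 membrane proteins, 1 of 15 sorting genes, 1 of 15 V-ATPase genes and 2 of 32 genes of mTORC1 signalling, where 7.84% of all tested genes passed. With library kind as a covariate these were 1, 0, 0, 0, 0 and 2, where 1.37% of all tested genes passed. For Dox against Veh they were 2 of the lysosomal enzymes, 1 of the membrane proteins and 0 of the other 4 lists, where 2.87% of all tested genes passed. At p under 0.05 there were 14 of the 168 genes, against 10.2% of all tested genes.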
